A study of Rattus norvegicus with 6 samples.

Results

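Sod1, Cat and Gpx4 encode 3 enzymes of oxidant defence whose transcripts were followed in rat liver exposed to carcinogens with and without N-acetylcysteine (NAC). They were chosen by Ensembl gene ID: ENSRNOG00000002115 for Sod1, ENSRNOG00000008364 for Cat and ENSRNOG00000013604 for Gpx4, 3 of the 43360 gene IDs counted and all 3 among the 16898 with enough counts to be tested. Of the 4 IDs in the selection rule, the ID given for Sod2 was not analysed here. The symbols are those of the rule, since the reference table used here pairs 0 Ensembl IDs with a symbol.

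The libraries were made from poly(A)-selected liver RNA of male Fischer-344 rats, an inbred strain, after 16 weeks of treatment. Control rats received 0.5% carboxymethyl cellulose, the vehicle, by mouth. The HCC group received the liver carcinogens diethylnitrosamine (DEN, 50 mg/kg, weekly) and then 2-acetylaminofluorene (2-AAF, 25 mg/kg), a combination used to induce hepatocellular carcinoma (HCC). The HCC/NAC group received both carcinogens and NAC, which supplies cysteine for the synthesis of glutathione, in a daily dose of 300 mg/kg, so that no group received NAC alone and every NAC library also carried the carcinogen exposure. The design lists 18 rats in 3 groups, and each group's 2 libraries were made by pooling the RNA of 5 animals. The sample titles call the libraries biological replicates (biol_rep), but the labels do not say whether the libraries of a group held different animals. Each p-value is therefore set against differences between the 2 libraries of a group, which can be technical alone. These differences are pooled over the 3 groups and moderated with the spread of the other tested IDs.

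Superoxide, formed mainly by electron leak in mitochondria and by oxidases, is converted to hydrogen peroxide and oxygen by superoxide dismutases, of which Sod1 is the cytosolic copper- and zinc-dependent enzyme. Catalase, the product of Cat, is a haem enzyme of peroxisomes that splits hydrogen peroxide into water and oxygen and is abundant in hepatocytes. Gpx4 is a selenoprotein that uses glutathione to reduce lipid hydroperoxides within membranes, and its loss leads to ferroptosis, a form of cell death driven by lipid peroxidation. The series title names the NRF2/KEAP1 pathway, in which the transcription factor NRF2 binds antioxidant response elements at genes of oxidant defence.

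RefSeq promoter sequences (build GRCr8, from 250 bases before to 50 bases after an annotated start) were found for all 3 genes and are shown so that the presence or absence of the NRF2 element's letters can be read beside the counts. For Gpx4, which has several annotated starts, the most upstream is shown. Capitals mark matches on either strand to the core of the antioxidant response element (TGANNNNGC), the GC box (GGGCGG), the CCAAT box (CCAAT) and the TATA box (TATAAA). The sequences read 5′ to 3′ in the direction of the gene.
Sod1 (chr11:42942573-42942872, plus strand): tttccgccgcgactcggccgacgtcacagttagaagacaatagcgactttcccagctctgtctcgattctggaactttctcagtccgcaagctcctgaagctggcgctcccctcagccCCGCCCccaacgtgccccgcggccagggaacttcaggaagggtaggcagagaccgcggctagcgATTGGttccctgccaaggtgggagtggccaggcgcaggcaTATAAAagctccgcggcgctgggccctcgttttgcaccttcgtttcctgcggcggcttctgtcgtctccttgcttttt
Cat (chr3:110329477-110329776, minus strand): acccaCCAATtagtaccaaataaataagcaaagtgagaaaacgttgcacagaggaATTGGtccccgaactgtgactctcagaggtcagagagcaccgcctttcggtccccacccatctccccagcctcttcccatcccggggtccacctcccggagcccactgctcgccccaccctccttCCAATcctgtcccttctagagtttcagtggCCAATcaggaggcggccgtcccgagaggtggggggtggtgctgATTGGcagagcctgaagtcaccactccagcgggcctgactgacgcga
Gpx4 (chr7:10303580-10303879, minus strand): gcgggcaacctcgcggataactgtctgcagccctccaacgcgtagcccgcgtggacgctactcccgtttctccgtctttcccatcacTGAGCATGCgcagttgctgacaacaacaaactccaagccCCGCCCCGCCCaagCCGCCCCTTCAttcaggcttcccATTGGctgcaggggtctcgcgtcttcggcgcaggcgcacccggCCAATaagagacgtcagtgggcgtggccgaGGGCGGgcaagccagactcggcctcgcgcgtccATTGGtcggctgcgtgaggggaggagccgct

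The TGANNNNGC core was matched in the Gpx4 window at 2 places, as TGAGCATGC and, on the other strand, as TGAAGGGGC, which overlaps a GC box. The number depends on the start: the windows at the other annotated Gpx4 starts, which were not chosen for display, held 1 match and 0 matches. The Sod1 and Cat windows held 0 matches, which says only that these letters do not occur in those 300 bases. The core is short: 40.5% of the 33465 rat promoter windows of this length held a match. The Sod1 window held a TATA box beginning 28 bases before the start, a motif found in 14.2% of windows, together with 1 GC box and 1 CCAAT box. The Cat window held 5 CCAAT boxes and the Gpx4 window 3, while 37.5% of all windows held at least 1. Gpx4 also had 4 GC boxes, 2 of which overlap each other, beside 33.1% of windows with at least 1. A match is a description of the sequence and was not tested against the counts.

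Library totals ranged from 33917707 to 37717373 counts. The 3 genes together took between 0.288% and 0.381% of all counts, and the lowest single count, 7306 for Gpx4, carries a counting error of 1.17%. Replicates of a group differed by 2.46% to 10.7% on the TMM scale described next. TMM scaling, which assumes that most genes do not differ, gave the HCC libraries factors of 1.19 and 1.18 and the other 4 libraries factors between 0.91 and 0.92. Levels are given below as CPM (counts scaled to a common library size) on the TMM scale and again as CPM of the library total, because the 2 scales order the groups differently. Moving from TMM to library totals shifted the log2 fold changes of the tested IDs. The median shift per ID was 0.37 in HCC against control, 0.0015 in HCC/NAC against control and -0.37 in HCC/NAC against HCC. With totals that leave out the 100 most abundant IDs, the median shifts from TMM were 0.31, 0.34 and 0.029 in the same order. HCC/NAC against control therefore depended on the scaling as well. In bulk liver, fewer cells of a type and less RNA per cell cannot be told apart. No gene ID could be paired with a cell type marker, so the liver identity of the libraries and the part that other cell types have in these values was not tested. The deposited file names carry different initials for the control libraries and for the 4 carcinogen-treated libraries. What the initials mark is not stated, and any difference they stand for cannot be told apart from the carcinogens.

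Sod1, the superoxide-removing enzyme, was highest in HCC/NAC livers on both scales. On the TMM scale it rose 1.15-fold against control and 1.39-fold against HCC. With library totals the difference between HCC/NAC and HCC was smaller and not called. The direction of Sod1 in HCC against control also depended on the scaling. The counts were 20983 and 20653 in control replicates 1 and 2, 22598 and 20731 in HCC, and 22948 and 23549 in HCC/NAC. On the TMM scale these correspond to 608 and 624 CPM in control, 502 and 517 CPM in HCC, and 691 and 724 CPM in HCC/NAC livers. No 2 groups overlapped on this scale, with HCC lowest and HCC/NAC highest. As CPM of the library total the values were 559 and 570 in control, 599 and 611 in HCC, and 636 and 663 in HCC/NAC livers. On this scale too the groups did not overlap, but control was lowest. The share of other IDs whose groups do not overlap was not computed on this scale.

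In HCC/NAC against control, Sod1 was higher by 0.20 ± 0.042 on the log2 scale (SE; adjusted p = 0.00196 by edgeR's quasi-likelihood test). It was called higher in 17 of 17 alternative analyses, with values between 0.15 and 0.54. Against HCC, Sod1 was higher with NAC by 0.47 ± 0.042 (SE; adjusted p = 5.80e-06, edgeR), a call that ended with library totals as the scale (0.10, adjusted p = 0.0644, edgeR). Against control, Sod1 in HCC livers fell by 0.27 ± 0.042 on the log2 scale (SE; adjusted p = 0.000283, edgeR), or 1.21-fold. That fall was called in 15 of 17 alternatives and turned to uncalled values of 0.10 with library totals and 0.038 with totals that leave out the 100 most abundant IDs.

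**Figure D1:**
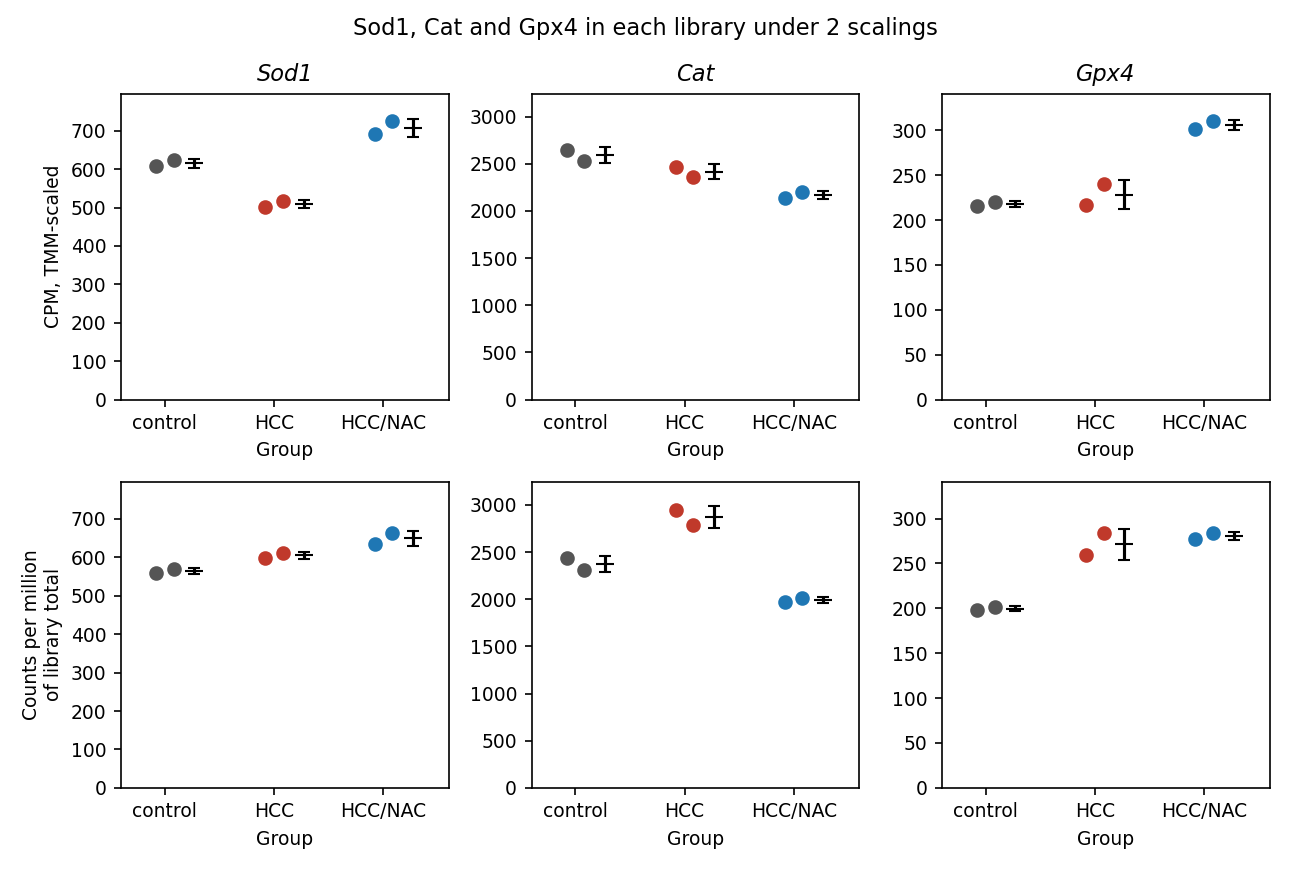
Level of Sod1, Cat and Gpx4 in each of the 6 libraries (points), with the group mean and SD (bars, n = 2), as TMM-scaled CPM (upper row) and as CPM of the library total (lower row); axes start at 0. Sod1 lies at 691 and 724 CPM in HCC/NAC livers on the TMM scale, above the other groups, and the HCC points of all 3 genes sit higher in the lower row than in the upper row.

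Cat, the peroxisomal catalase gene, was lowest in HCC/NAC livers on both scales, 1.19-fold below control and 1.11-fold below HCC on the TMM scale. Its counts were 91522 and 83940 in control, 111294 and 94669 in HCC, and 71105 and 71565 in HCC/NAC. On the TMM scale this gave 2650 and 2535 CPM in control, 2471 and 2363 CPM in HCC, and 2141 and 2202 CPM in HCC/NAC livers. The groups fell in the order control, HCC, HCC/NAC without overlap, although the lower control and the higher HCC library were close. As CPM of the library total, Cat stood at 2438 and 2315 in control, 2951 and 2791 in HCC, and 1970 and 2014 in HCC/NAC livers. HCC was then the highest group, and HCC/NAC remained the lowest.

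Against control, Cat in HCC/NAC livers fell by 0.26 ± 0.033 on the log2 scale (SE; adjusted p = 5.34e-05, edgeR). The call held in 15 of 17 alternatives. It was lost when the fit held only IDs averaging 10 CPM or more (-0.044, adjusted p = 0.293, edgeR). With totals that leave out the 100 most abundant IDs the value was an uncalled 0.084 (adjusted p = 0.0642, edgeR). The sign of this difference thus also depended on the scaling. Against HCC, Cat in HCC/NAC livers fell by 0.15 ± 0.033 (SE; adjusted p = 0.00421, edgeR), and all 17 alternatives gave a negative value, 14 of them called, from -0.53 with library totals to -0.062 in the fit of IDs averaging 10 CPM or more.

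In HCC against control, Cat fell by 0.10 ± 0.033 on the log2 scale (SE; adjusted p = 0.0329, edgeR), a 1.07-fold difference that was not stable. Without control replicate 1, control replicate 2 or HCC replicate 2 the values were -0.070, -0.067 and -0.067, with no call (adjusted p = 0.189, 0.186 and 0.258, edgeR). With library totals the direction turned to a called rise of 0.27 ± 0.034 (SE; adjusted p = 5.06e-05, edgeR), and without the 100 most abundant IDs to a called rise of 0.21 (adjusted p = 0.000475, edgeR). These data therefore give no scaling-free direction for Cat in HCC against control.

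Gpx4, the lipid hydroperoxide reductase, rose in HCC/NAC livers 1.40-fold against control, the widest of the 9 differences tested for the 3 genes on the TMM scale. Its counts were 7437 and 7306 in control, 9770 and 9619 in HCC, and 10015 and 10079 in HCC/NAC. On the TMM scale these were 215 and 221 CPM in control, 217 and 240 CPM in HCC, and 302 and 310 CPM in HCC/NAC livers. Control and HCC overlapped, and both HCC/NAC libraries lay above all 4 others. As CPM of the library total, Gpx4 stood at 198 and 202 in control, 259 and 284 in HCC, and 277 and 284 in HCC/NAC livers. On that scale HCC and HCC/NAC overlapped and control lay below both.

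The rise of Gpx4 in HCC/NAC against control, 0.49 ± 0.058 on the log2 scale (SE; edgeR adjusted p = 2.67e-05), was called in 17 of 17 alternatives, with values from 0.45 to 0.83. Against HCC, Gpx4 was higher with NAC by 0.42 ± 0.058 (SE; adjusted p = 0.000197, edgeR), or 1.34-fold. That call held in 16 of 17 alternatives and was lost with library totals (0.049, adjusted p = 0.556, edgeR). In HCC against control the difference was 0.068 ± 0.058 (SE; adjusted p = 0.412, edgeR), with a 95% interval from -0.060 to 0.20, so a rise of up to 1.14-fold lies within it. The HCC replicates differed by 10.7% on the TMM scale, more than the 2.46% and 2.81% in control and HCC/NAC, and without HCC replicate 2 the difference was -0.0045. With library totals it was a called rise of 0.44 (adjusted p = 5.25e-05, edgeR).

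**Figure D2:**
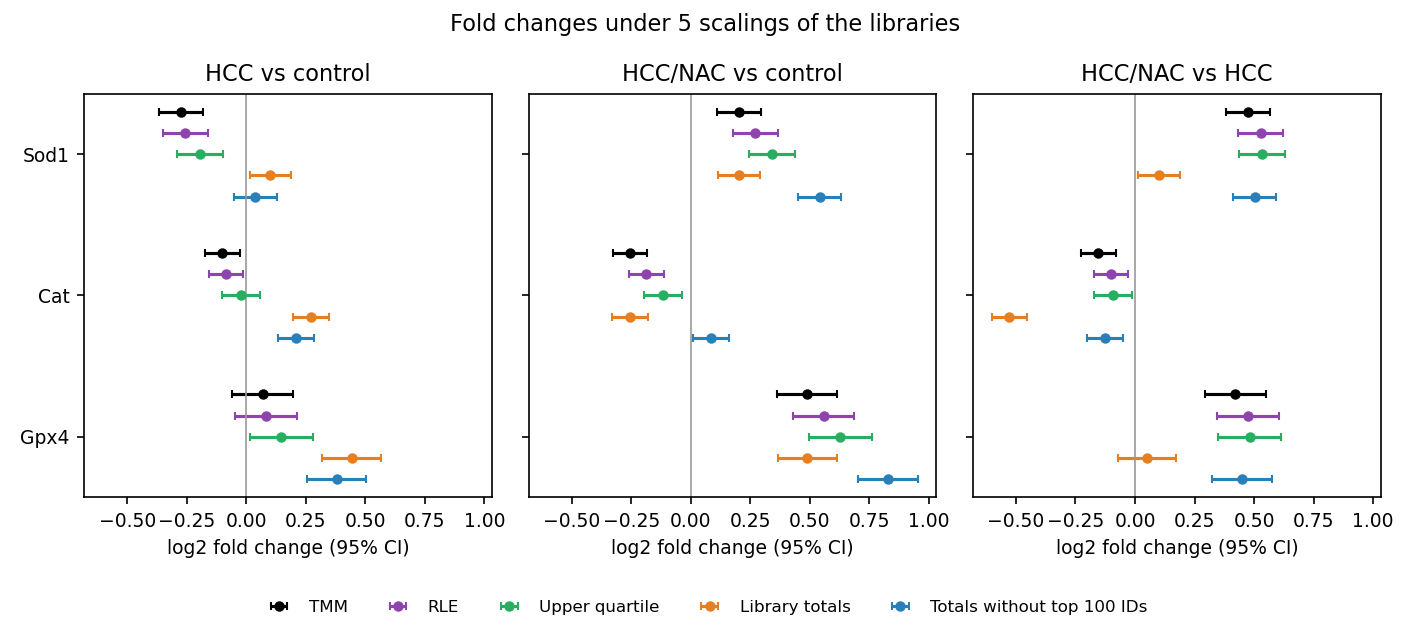
Log2 fold change of each gene (points) with its 95% interval (bars) in the 3 comparisons, fitted with 5 ways of scaling the libraries; the vertical line marks no difference. In HCC/NAC against control the Sod1 and Gpx4 intervals lie above 0 under all 5 scalings, whereas in HCC against control Sod1 moves from -0.27 with TMM to 0.10 with library totals.

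The calls for these genes are to be read against a background in which most abundant genes were called. In HCC against control 34.8% of all tested IDs passed the threshold, and 84.6% of the 1074 IDs averaging 100 CPM or more (24.4% higher and 60.2% lower), the range in which all 3 genes lie. Here 2 of the 3 genes were called, both lower. For HCC/NAC against control the background was 46.2% of all tested IDs and 89.5% of the abundant ones (26.4% higher and 63.0% lower), and all 3 genes were called, Sod1 and Gpx4 higher and Cat lower. Between HCC/NAC and HCC it was 27.7% and 73.6% (36.8% higher and 36.8% lower), again with Sod1 and Gpx4 called higher and Cat lower. The comparisons share libraries, and the share of the 3 genes that was called lies near that of the abundant background. Lack of overlap between groups was also common, at 95.0%, 95.1% and 89.9% of abundant IDs in the 3 comparisons on the TMM scale. For CPM of the library total this share was not computed, so the separations given on that scale have no background beside them.

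The median size of the log2 fold change among the 1074 abundant IDs, whatever its sign, was 0.63 in HCC against control, 0.70 in HCC/NAC against control and 0.37 in HCC/NAC against HCC. The 3 genes lay below it in both comparisons with control, whereas Sod1 (0.47) and Gpx4 (0.42) lay above it in HCC/NAC against HCC. With its sign, the median log2 fold change of the 1074 abundant IDs was -0.38 in HCC against control, -0.42 in HCC/NAC against control and 0.0015 in HCC/NAC against HCC. All 3 genes lay above this median in both comparisons with control, including those that were called lower. In HCC against control, 55.1% of the abundant IDs had a lower log2 fold change than Sod1, 63.2% than Cat and 70.7% than Gpx4. For HCC/NAC against control these percentages came to 74.7% for Sod1, 57.4% for Cat and 82.7% for Gpx4. Between HCC/NAC and HCC, Sod1 and Gpx4 lay above 79.8% and 77.5% of the abundant IDs and Cat above 37.8%. None of the 3 genes lay in the outer 10 percent of these IDs.

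**Figure D3:**
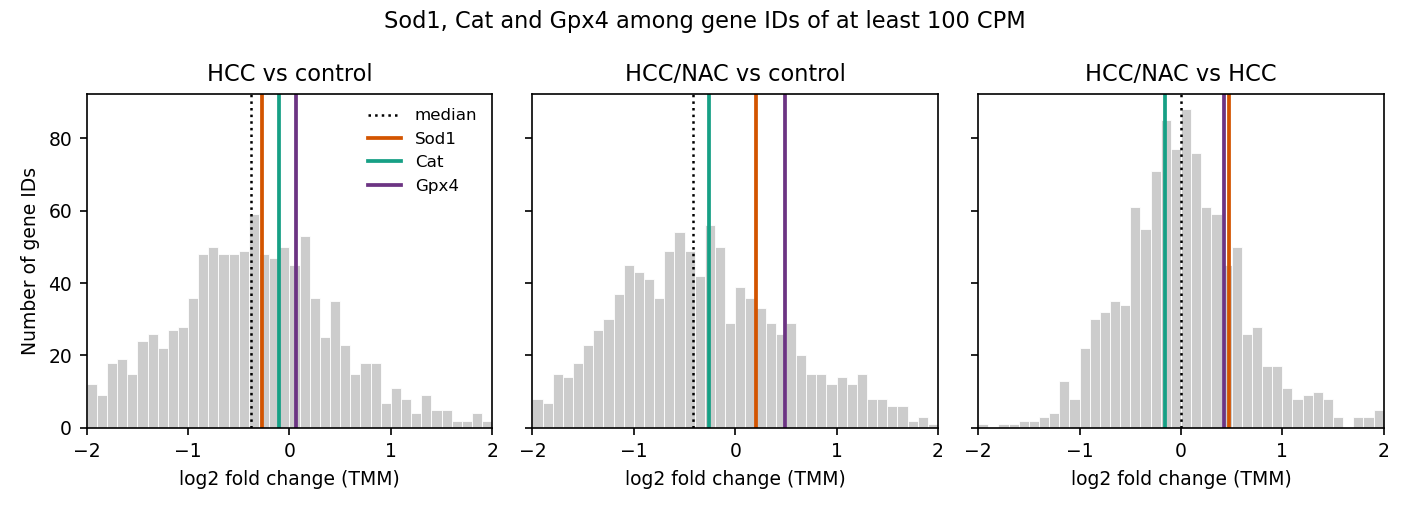
Number of gene IDs of at least 100 CPM by their log2 fold change on the TMM scale, in bins of 0.1, for the 3 comparisons; lines mark Sod1, Cat, Gpx4 and the dotted median of the 1074 IDs. IDs beyond 2 in either direction (64, 72 and 10 in the order of the panels) are not drawn; all 3 genes lie to the right of the median in both comparisons with control.

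Ratios of counts between these genes within a library do not depend on how libraries are scaled. They are used here only for their change between groups, since a ratio of counts also reflects transcript length and is not a ratio of molecules. The ratio of Cat to Sod1 counts was 4.36 and 4.06 in the control libraries, 4.92 and 4.57 in those of HCC, and 3.10 and 3.04 with NAC. It was 1.37-fold lower in HCC/NAC than in control and 1.55-fold lower than in HCC, with no overlap, while the HCC libraries lay 1.13-fold above control, also without overlap. Catalase transcripts were therefore fewer relative to Sod1 transcripts in the group given NAC than in either other group, whichever scaling is used.

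The ratio of Gpx4 to Sod1 counts was 0.354 in both control libraries, 0.432 and 0.464 in HCC, and 0.436 and 0.428 in HCC/NAC livers. Both carcinogen-treated groups lay above control, 1.26-fold in HCC and 1.22-fold in HCC/NAC, and they overlapped each other. Gpx4 counts were thus higher relative to Sod1 counts with carcinogens, with or without NAC. The ratio of Gpx4 to Cat counts was 0.0813 and 0.0870 in control, 0.0878 and 0.102 in HCC, and 0.141 in both HCC/NAC libraries. It was 1.67-fold higher in HCC/NAC than in control and 1.49-fold higher than in HCC. The lowest HCC value, 0.0878, lay just above the highest control value, 0.0870, and the mean difference of HCC from control was 1.12-fold.

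The ratios were tested with the same edgeR model after scaling each library to its count of the second gene, a test added after the data were seen. Relative to Sod1, Cat in HCC/NAC livers was lower by 0.46 ± 0.046 on the log2 scale than in control (SE; edgeR adjusted p = 6.11e-06) and lower by 0.63 ± 0.046 than in HCC (SE; edgeR adjusted p = 8.32e-07). Gpx4 relative to Sod1 was higher than in control by 0.34 ± 0.060 in HCC (SE; edgeR adjusted p = 0.000858) and by 0.29 ± 0.060 in HCC/NAC (SE; edgeR adjusted p = 0.00196). Between HCC/NAC and HCC it differed by -0.052, with a 95% interval from -0.18 to 0.080 (edgeR adjusted p = 0.549). Gpx4 relative to Cat was higher in HCC/NAC by 0.74 ± 0.080 against control and by 0.57 ± 0.080 against HCC (SE; edgeR adjusted p = 9.24e-06 and 0.000195). All 7 of these differences kept their side of the threshold with each library left out in turn.

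The ratios were less certain in HCC against control where Cat was involved. Cat relative to Sod1 was higher by 0.17 ± 0.046 (SE; edgeR adjusted p = 0.0118), but not called without control replicate 2 (0.12, adjusted p = 0.111) or HCC replicate 1 (0.12, adjusted p = 0.110). Gpx4 relative to Cat differed by 0.17 ± 0.080 without a call (SE; edgeR adjusted p = 0.125), and by 0.061 without HCC replicate 2 and 0.27 without HCC replicate 1 (edgeR adjusted p = 0.764 and 0.0389). With Sod1 as the scale, 37.1%, 46.4% and 42.8% of all other tested IDs were called in HCC against control, HCC/NAC against control and HCC/NAC against HCC, and with Cat 33.7%, 46.0% and 25.9%. Lack of overlap was also common: the ratio to Sod1 separated the groups for 94.5%, 93.8% and 92.9% of the other abundant IDs in the same order of comparisons, and the ratio to Cat for 91.4%, 91.8% and 87.2%.

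**Figure D4:**
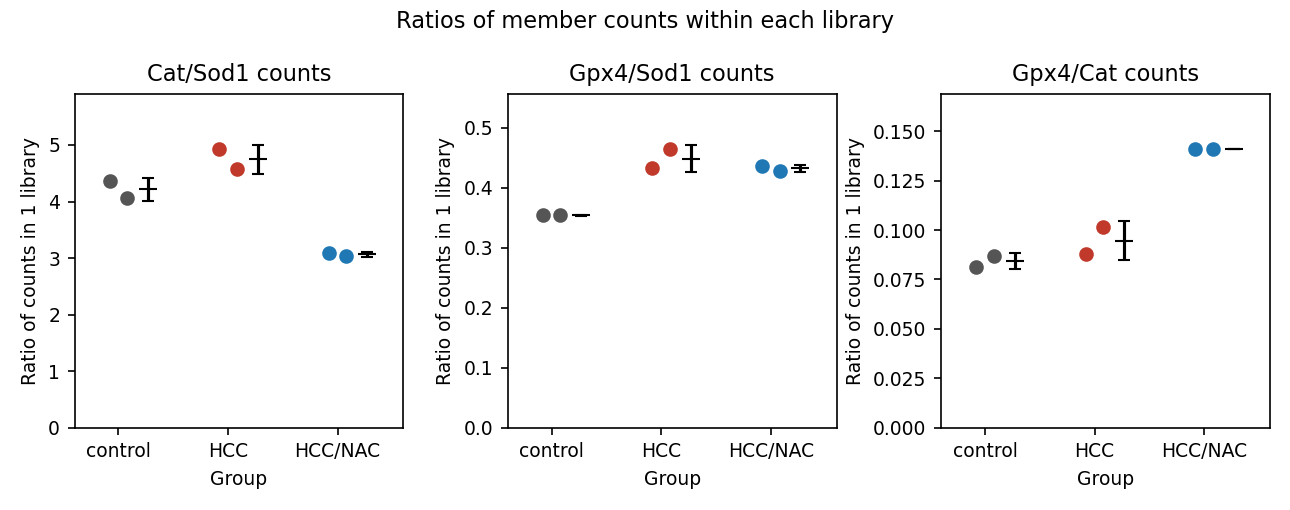
Ratio of Cat to Sod1, Gpx4 to Sod1 and Gpx4 to Cat counts in each library (points) with the group mean and SD (bars, n = 2); axes start at 0. The Cat to Sod1 ratio is 3.10 and 3.04 in HCC/NAC livers against 4.06 or more in the other 4 libraries, and the Gpx4 to Cat ratio is 0.141 in both HCC/NAC libraries.

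Across the 6 libraries, log2 CPM of Sod1 and Gpx4 on the TMM scale had a Pearson r of 0.74, Cat and Gpx4 of -0.94, and Sod1 and Cat of -0.51. These coefficients rest on 3 groups of 2 libraries that share their scaling and describe the order of the group means. As CPM of the library total, Cat and Gpx4 were both higher in HCC than in control, so their opposition depends on the scaling. No coefficient was computed on that scale. Among the 7485 IDs averaging 10 CPM or more, which include the 3 genes, 134 other IDs had an r above 0.95 with Sod1, 429 with Cat and 188 with Gpx4. The ID most like Sod1 was ENSRNOG00000020318 (r = 0.998), at 10.9 ± 0.24 CPM in control livers, 8.72 ± 0.31 CPM in HCC livers and 12.7 ± 0.77 CPM with NAC (SD, n = 2 each). The ID most like Cat was ENSRNOG00000004751 (r = 0.998), at 19.3 ± 1.8, 13.5 ± 2.1 and 7.89 ± 0.76 CPM in the same order (SD, n = 2 each), a steeper decline than that of Cat. The ID most like Gpx4 was ENSRNOG00000022414 (r = 0.997), at 10.3 ± 0.56, 12.1 ± 1.5 and 27.8 ± 1.6 CPM (SD, n = 2 each). These IDs were picked for their r over the same 6 libraries, so a group order like the gene's follows from the choice. The ID most like Sod1 was called only in HCC/NAC against HCC (adjusted p = 0.0402, edgeR). It was not called in HCC or in HCC/NAC against control (adjusted p = 0.196 and 0.332, edgeR). The products of these 3 IDs were not identified here.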

How the data were processed

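Per the labels' protocols, liver RNA was poly(A)-selected and pooled into 2 libraries per group. The submitters' processing notes name FastQC, STAR, featureCounts and edgeR. Their versions, the genome build, the annotation and the strand setting: not given in the sources used here. Protocols call the animals mice, the organism label rat. The authors deposited unnormalized counts, 1 per gene ID and library, each column made from a STAR alignment per the file headers. How reads shared with near-identical copies or overlapping genes were counted is not stated, so such reads leave the 3 genes' counts uncertain.

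From these counts, edgeR 4.0.16 (R 4.3.3) kept 16898 IDs by filterByExpr, scaled libraries by TMM and fitted 1 quasi-likelihood model with group means to the 6 libraries together (3 residual degrees of freedom). A call is a Benjamini-Hochberg adjusted p under 0.05 over all IDs tested; rose, fell, higher and lower with a p refer to calls. With the spread moderated across all tested IDs, the tests of the 3 genes used 11.5 degrees of freedom in total. Standard errors come from the quasi-likelihood F. No 2 replicates were alike within sampling noise (chi-square per degree of freedom from 5.22 to 12.2). The method was tested on simulated data in which few genes changed, in random directions. Far more IDs were called in these libraries, so that test does not cover the choice of scaling. Alternatives were 2 other scalings, DESeq2 1.42.0, limma 3.58.1 (voom with library weights), 3 other filters, the replicate number as a block, the compared groups only and each library left out. Library totals, with or without the 100 most abundant IDs, were added after seeing the data, as was the test of ratios with each library scaled to its Sod1 or Cat count.

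The named genes are the 3 members and, for each, the ID with the highest r among IDs averaging 10 CPM or more. Members and lists were chosen with earlier results of these data known. The lists of related genes and cell type markers needed symbols and were not used here.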

Additional observations from a re-analysis of the deposited data

How the results depend on the processing

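Of 153 alternative values for the 3 genes, 130 kept their direction and side of the threshold, 13 lost the call, 3 gained it and 7 changed sign. The cause of these changes was not tested. With library totals, a scale chosen after seeing the data, Sod1, Cat and Gpx4 in HCC against control were 0.10, 0.27 and 0.44, and in HCC/NAC against HCC Sod1 and Gpx4 were 0.10 and 0.049 without a call. With totals that leave out the 100 most abundant IDs, also chosen later, the values in HCC against control were 0.038, 0.21 and 0.38, and Cat in HCC/NAC against control was 0.084. In the fit of IDs averaging 10 CPM or more, Cat was 0.018 and Gpx4 0.19 (called) in HCC against control, and Cat was -0.044 and -0.062 in HCC/NAC against control and against HCC. Cat in HCC against control lost its call with RLE (-0.085), upper-quartile scaling (-0.023), the stricter filter (-0.062) and the compared groups only (-0.072). In HCC/NAC against HCC it lost the call with upper-quartile scaling (-0.094) and the stricter filter (-0.092).

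Leaving out each library gave -0.13 to -0.067 for Cat and -0.0045 to 0.15 for Gpx4 in HCC against control. The number of IDs called in HCC/NAC against HCC ranged from 3093 (without HCC replicate 1) to 5075, beside 4686 with all libraries. Among the tested ratios in HCC against control, leaving out each library gave 0.12 to 0.23 for Cat to Sod1 (4 of 6 called) and 0.061 to 0.27 for Gpx4 to Cat (1 of 6 called, without HCC replicate 1). The other 7 tested ratios kept their side of the threshold in all 6. Higher and lower calls numbered 2876 and 3007 in HCC against control, 5398 and 1536 with library totals, and 4884 and 1733 without the 100 most abundant IDs. For HCC/NAC against control they numbered 3599 and 4208, and 5423 and 2671 without those IDs; in HCC/NAC against HCC 1899 and 2787, and 783 and 5811 with library totals.

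Deviations of same-numbered libraries from their group means correlated at 0.050, 0.014 and 0.0015, so no broad effect shared by replicate number was seen. Whether same-numbered libraries were handled together cannot be told from these values. With the replicate block, 5982, 7650 and 4861 IDs were called in place of 5883, 7807 and 4686, and the 9 results for the 3 genes kept their calls.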
